A study of Mus musculus with 9 samples.

Results

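The 33 genes described here are interferon-induced genes together with Sting1, listed by name, with earlier results of these data known. Of the 33, 29 had a probe set annotated to that gene alone and were measured, among 19938 genes with such a probe set. Isg15, Gbp2 and Igtp lay only on probe sets shared with another gene, and Ifi44 was not matched, so these 4 carry no value below. The tissue was nasal mucosa of BALB/c mice, an inbred strain used in allergy models, labelled male and aged 6 to 8 weeks, with no engineered allele named. Expression was read on 9 Affymetrix Mouse Gene 1.0 ST arrays, 3 in each of 3 groups. Control mice received saline for sensitisation and challenge. The OVA group was given the hen egg allergen ovalbumin in both steps and killed 2 hours after its final challenge. The 4-week group had the same treatment and was killed 4 weeks after it. All 3 groups carry the same age label, which does not say whether age was taken at the start or at death. The series concerns allergen avoidance, so the comparisons ask what differed soon after allergen, and what differed after the allergen-free interval.

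Interferons are secreted proteins that set neighbouring cells into an antiviral state. Type I interferons act through Ifnar1 and Ifnar2 and a complex that holds STAT2 and IRF9, which binds the interferon-stimulated response element. Interferon gamma acts through Ifngr1 and Ifngr2, and its target genes often carry the gamma-activated sequence. STING, the product of Sting1, sits in the endoplasmic reticulum and relays the signal of the DNA sensor cGAS through TBK1 and IRF3 to interferon genes. In airway and olfactory mucosa these genes are best known from responses to viruses.

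The arrays labelled control carried a sex-linked pattern that goes against the male label. Xist, a transcript of the inactive X that marks female tissue, stood at 10.62, 10.70 and 11.11 (log2) in the control arrays and at 4.22 to 4.42 in the other 6. Of the other 3 sex-linked genes checked, all Y-linked, all were lower in the control arrays. Control arrays therefore differed from both other groups in sex pattern as well as in treatment, which cannot be told apart, and only 4-week minus OVA compares groups of the same pattern. None of the 29 genes lies on chromosome X or Y. Markers of the labelled tissue were present, with Omp of olfactory neurons at 11.47 to 12.43 and Bpifa1 of the nasal epithelium at 12.37 to 13.14. Array medians lay between 6.38 and 6.45. The labels do not say that arrays came from separate animals, so the p-values cover only array-to-array spread, part of which may be technical, and 3 arrays a group limit the precision. Each group enters 2 of the 3 comparisons, which therefore share arrays and are given side by side.

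The upstream sequences of 5 genes are shown because these genes either passed a test below or stood out on a single array. RefSeq promoter windows (GRCm38.p6) were found for 25 of the 33 genes. The genes without one are Zbp1, Sting1, Mx1, Mx2, Oas2, Usp18, Iigp1 and Ifi27l2a. Each run covers the 250 bases before the annotated transcript start, 5′ to 3′ on the strand of the gene. Capitals mark matches to the core of the interferon-stimulated response element, searched as GAAA, any 2 bases and GAAA again on both strands, or to the gamma-activated sequence, searched as TTCNNNGAA, which reads the same on both strands. Adjoining or overlapping matches run together. Rsad2 lies at chr12:26456453-26456702 (minus strand), Irgm1 at chr11:48871421-48871670 (minus strand), Irf9 at chr14:55603735-55603984 (plus strand), Gbp5 at chr3:142496684-142496933 (plus strand) and Irf1 at chr11:53769764-53770013 (plus strand).
Rsad2: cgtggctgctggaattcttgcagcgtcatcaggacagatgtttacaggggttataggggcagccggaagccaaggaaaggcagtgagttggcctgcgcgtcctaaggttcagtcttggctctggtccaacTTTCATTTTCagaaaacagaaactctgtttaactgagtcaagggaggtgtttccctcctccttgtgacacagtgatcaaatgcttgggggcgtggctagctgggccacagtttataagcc
Irgm1: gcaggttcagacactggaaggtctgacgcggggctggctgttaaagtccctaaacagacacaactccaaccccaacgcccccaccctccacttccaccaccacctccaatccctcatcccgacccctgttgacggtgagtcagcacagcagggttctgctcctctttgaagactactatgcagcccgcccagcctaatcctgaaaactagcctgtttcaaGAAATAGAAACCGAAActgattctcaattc
Irf9: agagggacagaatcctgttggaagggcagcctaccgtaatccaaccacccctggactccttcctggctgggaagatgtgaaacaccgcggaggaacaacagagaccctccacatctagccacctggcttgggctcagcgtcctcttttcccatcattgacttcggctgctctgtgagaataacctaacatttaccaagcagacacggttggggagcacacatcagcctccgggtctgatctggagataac
Gbp5: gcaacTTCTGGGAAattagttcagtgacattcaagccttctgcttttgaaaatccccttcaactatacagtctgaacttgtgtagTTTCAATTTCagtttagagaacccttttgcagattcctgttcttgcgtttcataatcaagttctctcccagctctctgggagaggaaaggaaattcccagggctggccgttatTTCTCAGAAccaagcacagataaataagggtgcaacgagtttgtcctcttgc
Irf1: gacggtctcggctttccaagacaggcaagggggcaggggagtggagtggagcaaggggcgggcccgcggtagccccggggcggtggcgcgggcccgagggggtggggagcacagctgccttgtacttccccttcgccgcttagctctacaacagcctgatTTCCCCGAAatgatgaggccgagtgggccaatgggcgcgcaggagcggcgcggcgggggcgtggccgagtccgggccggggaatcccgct

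The printed Rsad2 sequence holds 1 response-element match, beginning 120 bases before the start, and that of Irgm1 holds 2 overlapping matches, beginning 30 and 24 bases before it. Gbp5 has 1 response-element match and 2 gamma-activated matches, Irf1 has 1 gamma-activated match, and Irf9 has neither in this window. Over all 29 windows of the 25 genes, 14 (48.3%) held the response-element core, against 2.98% of the 32851 windows in the table. The gamma-activated sequence was found in 7 of 29 windows (24.1%), against 7.02% of all windows. The genes are a panel known for interferon induction, so this is a description of the panel, and a match is not evidence of binding.

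**Figure D1:**
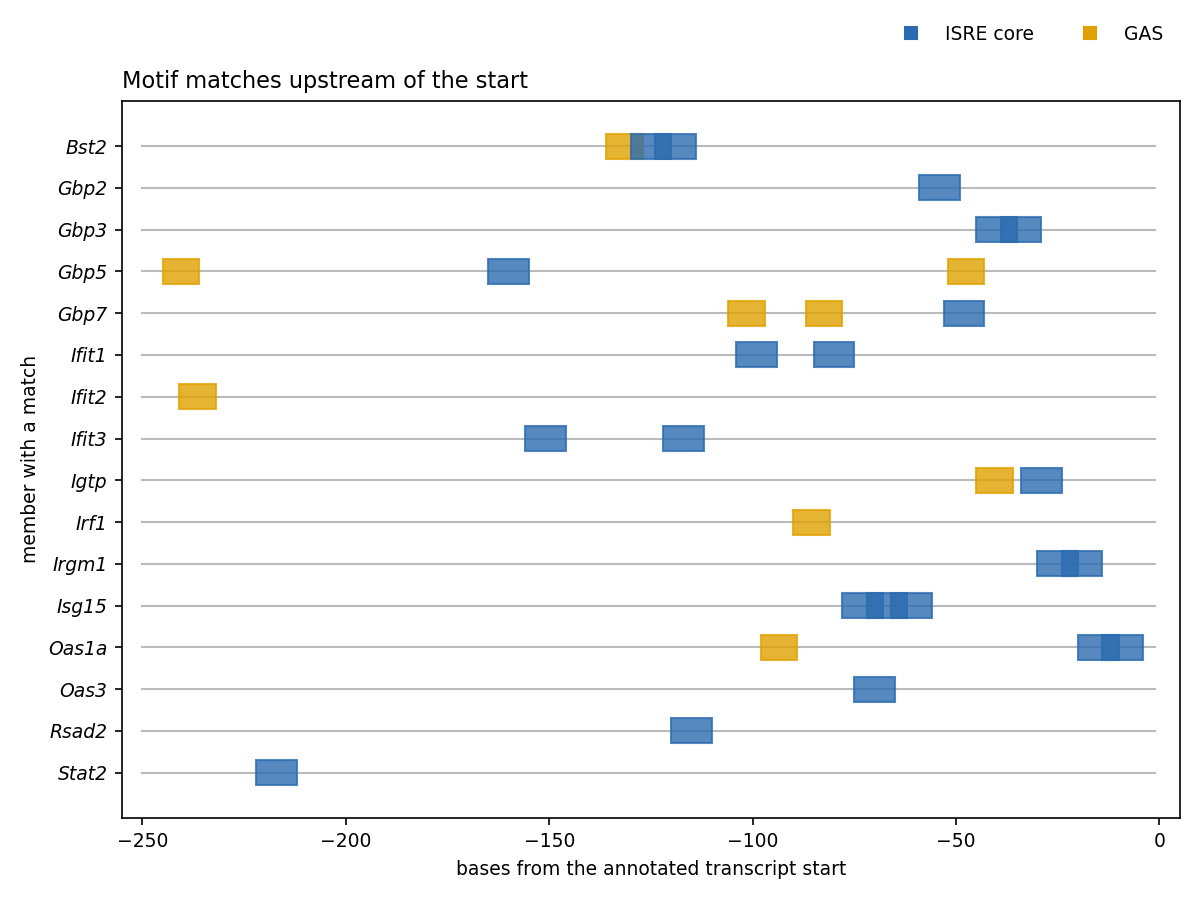
Positions of motif matches in the 250 bases before the transcript start, for the 16 genes of the panel with a match. The x axis is the distance in bases from the annotated start, blue boxes are response-element cores and orange boxes gamma-activated sequences. Overlapping pairs or triplets of response-element cores are seen in Bst2, Gbp3, Irgm1, Isg15 and Oas1a.

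Most of the panel passed in no comparison, and 5 genes carried all of its calls. Sting1 was higher 2 hours after challenge and back near the control level at 4 weeks. Ifi27l2a was lower in the OVA than in the control arrays. Irf9 was lower and Rsad2 and Irgm1 were higher at 4 weeks than in the control arrays, and Rsad2 was also higher at 4 weeks than in the OVA arrays. The remaining 24 measured genes, which include all measured IFIT, MX, OAS and GBP genes, passed in none of the 3 comparisons.

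In numbers, limma called 2 of 29 genes (6.90%) in OVA minus control at an adjusted p under 0.05, where 1.30% of all 23410 probe sets were called. In 4-week minus OVA it called 2 of 29 (6.90%), against 6.33% of all probe sets, a share near the background. In 4-week minus control it called 3 of 29 (10.3%), against 14.4% of all probe sets, below the background. The median log2 difference of the 29 genes was 0.01, 0.02 and −0.01 in these comparisons, beside −0.02, −0.02 and −0.04 over all probe sets. All 29 genes entered every count, since no filter on low values was applied. At an unadjusted p under 0.05, 5, 7 and 7 of the 29 passed. The share of all probe sets at that cut was not counted, so the unadjusted counts here and below have no background beside them. Among genes not called, the 95% interval of the difference stayed within a 2-fold change either way for 25 of 27, 25 of 27 and 26 of 26. The exceptions were Irf1 and Gbp5 in OVA minus control, and Gbp5 and Ifi27l2a in 4-week minus OVA.

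**Figure D2:**
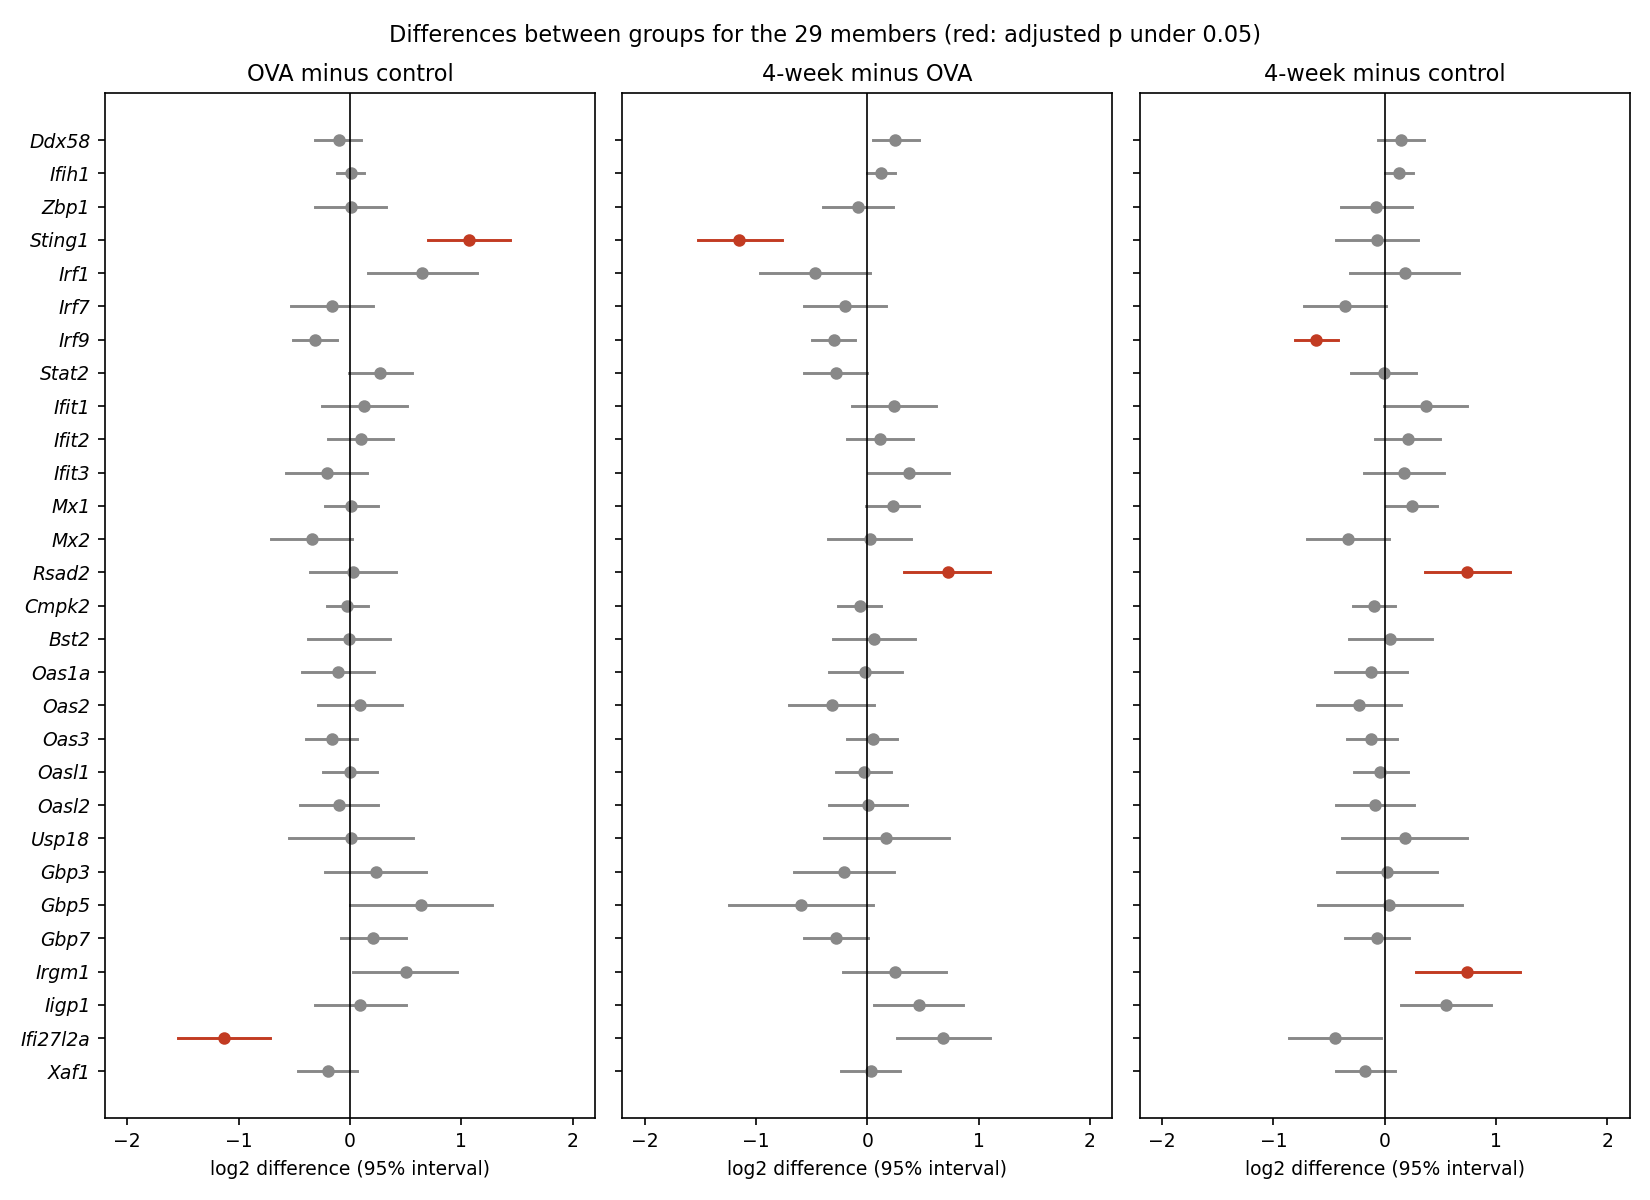
Log2 difference between groups with its 95% interval for each of the 29 genes, in 3 panels, 1 per comparison. Red marks an adjusted p under 0.05. Most intervals cross 0, and Sting1 stands at 1.07 and −1.15 in the first 2 panels.

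Groups of arrays that do not overlap were also counted. In OVA minus control 6 of 29 genes (20.7%) had no overlap, against 21.5% of all probe sets, and in 4-week minus control 6 of 29 (20.7%), against 35.0%. In 4-week minus OVA the number was 14 of 29 (48.3%), against 28.1%, with 8 genes higher and 6 lower at 4 weeks. The 8 higher genes were Ddx58, Ifih1, Ifit1, Ifit3, Mx1, Rsad2, Iigp1 and Ifi27l2a. The 6 lower ones were Sting1, Irf7, Irf9, Oas2, Gbp5 and Gbp7. Of these 14, only Sting1 and Rsad2 were called.

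Among sensors and adaptors, Sting1 read 7.58, 7.09 and 6.90 on control replicates 1, 2 and 3, 8.26, 8.24 and 8.29 on the OVA arrays, and 7.20, 7.26 and 6.90 on the 4-week arrays. All 3 OVA arrays lay above the other 6, and the control and 4-week arrays overlapped. The rise after challenge was 2.10-fold (log2 difference 1.07, SE 0.16, n = 3 per group, limma adjusted p = 0.0215), and the fall to 4 weeks 2.21-fold (−1.15, SE 0.16, adjusted p = 0.00772). The 4-week and control means, 7.12 ± 0.19 and 7.19 ± 0.35 (SD, n = 3), differed by −0.07 with a 95% interval from −0.44 to 0.30. The fall from OVA to 4 weeks passed in all 9 fits that each left out 1 array (adjusted p up to 0.0344), and it does not involve the control arrays. The rise over control passed in 4 of these 9 fits and was lost without control replicate 2 or 3 and without any 1 of the OVA arrays, where the adjusted p was 0.0543 to 0.0986 and the log2 difference 0.93 to 1.09. Without control replicate 1, the highest control array, the rise was 1.27 (adjusted p = 0.00733).

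The other sensors did not follow Sting1. Ddx58, which encodes RIG-I, a sensor of viral RNA, had means of 7.61 ± 0.14, 7.51 ± 0.04 and 7.76 ± 0.13 (SD, n = 3) in control, OVA and 4-week arrays, with differences of −0.10 after challenge and 0.25 from OVA to 4 weeks (adjusted p = 0.615 and 0.135). Ifih1, which encodes MDA5, another RNA sensor, differed by 0.01 and 0.12 (adjusted p = 0.967 and 0.223). Zbp1, a sensor of Z-form nucleic acid, differed by 0.01 and −0.08 (adjusted p = 0.989 and 0.753). The 95% intervals after challenge were −0.31 to 0.10, −0.12 to 0.13 and −0.31 to 0.32, so none reached the size of the Sting1 difference.

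Of the genes around STING in its pathway, Cgas, Tbk1 and Irf3 were close to flat. Cgas, the DNA sensor upstream, differed by −0.03 after challenge and −0.06 from OVA to 4 weeks. Tbk1, the kinase downstream, differed by 0.12 and −0.02, and Irf3, its transcription factor substrate, by 0.05 and −0.02. Mavs, the mitochondrial adaptor of the RNA sensors, differed by 0.00 in both. Of 11 measured genes of sensing and relay, limma called none in any comparison, with 1, 1 and 0 at an unadjusted p under 0.05. With 1.30%, 6.33% and 14.4% of all probe sets called, 0 calls in 11 genes says little about these genes. Among them Ikbke differed by 0.22 and −0.31 (adjusted p = 0.377 and 0.145), and Dhx58 by −0.36 and 0.13 (adjusted p = 0.284 and 0.639). Ifnb1, the first interferon gene the STING route induces, read 3.65 to 3.88 over all 9 arrays, and Cgas 3.99 to 4.28. Both lay well below the array medians of 6.38 to 6.45, and their distance from background was not assessed.

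Markers of other cell types were examined beside Sting1, because fewer cells of a type and less RNA per cell cannot be told apart in bulk tissue. Of 8 neutrophil markers, only Csf3r was called, with 1.03 after challenge (limma adjusted p = 0.0443) and −1.02 from OVA to 4 weeks (adjusted p = 0.0212), calls kept in 1 and 4 of 9 fits that left out an array. After challenge 5 of the 8 lay below 0, with a median of −0.09, among them Ly6g at −1.58 with no overlap (adjusted p = 0.212) and S100a8 at −1.01 (adjusted p = 0.323). Cxcr2 was among the 3 above 0, at 0.81 with no overlap (adjusted p = 0.137). From OVA to 4 weeks it stood at −0.61, again with no overlap (adjusted p = 0.155). In that comparison 5 of the 8 lay below 0, with a median of −0.14. The mean log2 level of the 8 markers ranged over 6.46 to 7.55, 6.86 to 7.36 and 6.12 to 7.24 in control, OVA and 4-week arrays. None of 10 macrophage and monocyte markers passed in limma (5, 4 and 2 at an unadjusted p under 0.05 in the 3 comparisons). After challenge 8 of the 10 lay above 0, with a median of 0.46. From OVA to 4 weeks 7 lay below 0, with a median of −0.45. Their mean level ranged over 6.32 to 6.94, 6.60 to 7.37 and 6.68 to 6.79 in control, OVA and 4-week arrays. On OVA replicates 1, 2 and 3 that mean was 7.27, 6.60 and 7.37. Other cell type markers called in these comparisons were Bpifb9a of glands after challenge (−4.80, adjusted p = 0.0415) and, from OVA to 4 weeks, Spib of plasmacytoid dendritic cells (−0.38, adjusted p = 0.0445) and Dnah9 of ciliated cells (0.91, adjusted p = 0.0391). None of 6 mast cell markers passed, but all 6 lay above 0 after challenge, with 4 at an unadjusted p under 0.05 in limma. The largest was Mcpt1 (4.12, adjusted p = 0.0659). From OVA to 4 weeks all 6 lay below 0. The mean of the 6 ranged over 4.56 to 4.92 in control and 5.19 to 5.42 in 4-week arrays. On OVA replicates 1, 2 and 3 it was 6.11, 5.10 and 6.38. All 4 eosinophil markers lay above 0 after challenge (median 0.21) and below 0 from OVA to 4 weeks (median −0.46). None of these 4 was called, and their arrays overlapped in both comparisons. All 5 ciliated cell markers lay the other way, below 0 and then above 0. Over all probe sets, 1.30% and 6.33% were called in these comparisons. The part of cell composition in the Sting1 difference was not tested.

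**Figure D3:**
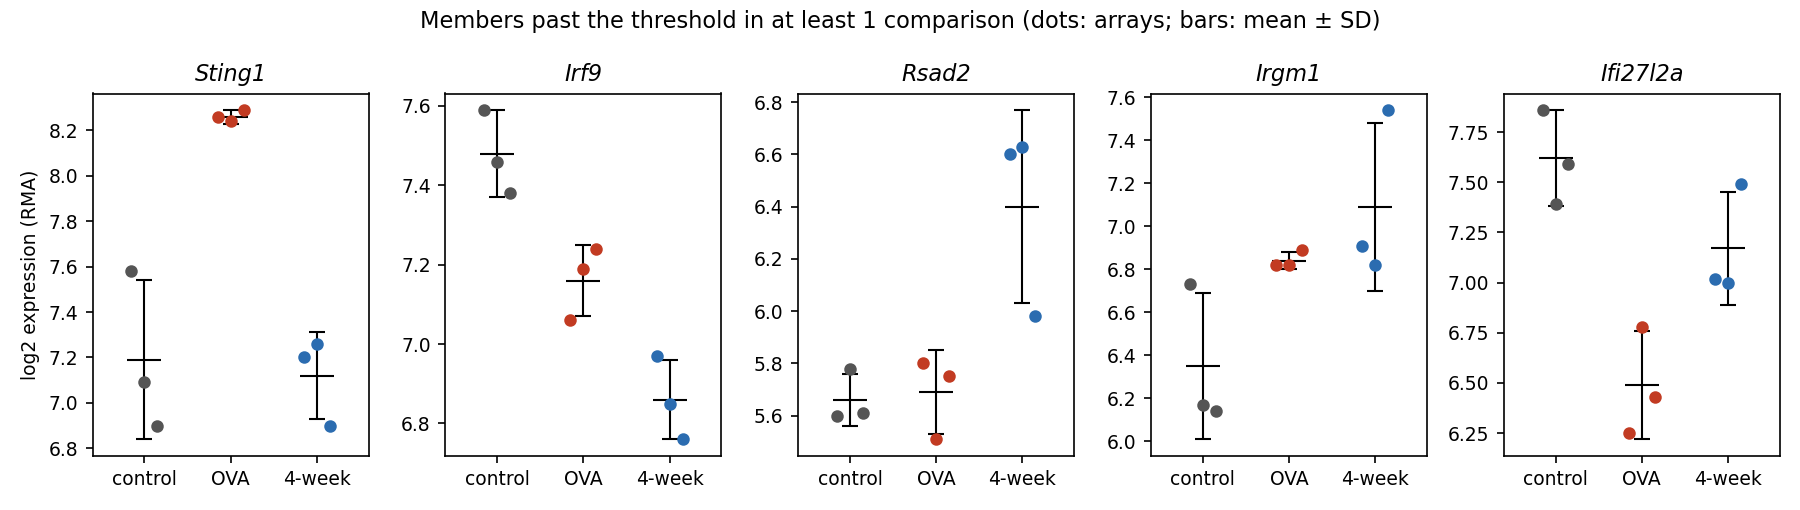
Log2 expression of the 5 genes called in at least 1 comparison, 1 panel per gene, with a dot for each array and bars for the mean and SD of the 3 arrays of a group. The y axes differ between panels. The Sting1 OVA arrays sit between 8.24 and 8.29, above all 6 other arrays, and Irf9 steps down from control to OVA to 4-week arrays with no overlap.

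Among transcription factors, Irf9, the DNA-binding part of the type I interferon complex, read 7.59, 7.46 and 7.38 on the control arrays, 7.06, 7.19 and 7.24 on the OVA arrays, and 6.97, 6.85 and 6.76 on the 4-week arrays. No groups overlapped, with control highest and 4-week lowest. The 4-week mean was 1.54-fold below control (log2 difference −0.62, SE 0.09, n = 3 per group, limma adjusted p = 0.00400), and this passed in all 9 fits that left out an array (adjusted p up to 0.0184). Each single step was smaller and did not pass, at −0.31 from control to OVA (adjusted p = 0.121) and −0.30 from OVA to 4 weeks (adjusted p = 0.0719). The called difference is taken against arrays with the other sex pattern, while the second step is not.

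Stat2, the partner of Irf9 in that complex, did not change with it. Its means were 6.97 ± 0.17, 7.24 ± 0.23 and 6.96 ± 0.10 (SD, n = 3), and the 4-week minus control difference was −0.01 (95% interval −0.30 to 0.28). Irf7, the factor that amplifies interferon alpha production, stood 0.16 lower in OVA than in control arrays (−0.16, adjusted p = 0.666) and 0.36 lower at 4 weeks than in control arrays (−0.36, adjusted p = 0.163). Irf1, a factor induced strongly by interferon gamma, read 6.69, 7.60 and 6.95 on the OVA arrays against 6.69, 6.42 and 6.17 on the control arrays. Its difference of 0.65 (SE 0.22) did not pass (adjusted p = 0.185), was 0.39 without OVA replicate 2, and was −0.08 on a second Irf1 probe set.

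Among antiviral effectors, Rsad2 stood apart at 4 weeks. Rsad2 encodes viperin, an enzyme that makes a chain-terminating nucleotide against viral RNA synthesis. It read 5.60, 5.78 and 5.61 on the control arrays, 5.80, 5.51 and 5.75 on the OVA arrays, and 6.60, 6.63 and 5.98 on the 4-week arrays. All 4-week arrays lay above the other 6, with replicates 1 and 2 well above replicate 3. The 4-week mean was 1.64-fold above OVA (log2 difference 0.72, SE 0.17, limma adjusted p = 0.0416) and 1.67-fold above control (0.74, SE 0.17, adjusted p = 0.0229). The call against OVA was kept in only 1 of 9 fits that left out an array, the one without 4-week replicate 3 (0.93, adjusted p = 0.0103), and was otherwise lost with adjusted p up to 0.127. The call against control was lost in 4 of the 9, those without control replicate 1 or 3 or 4-week replicate 1 or 2 (adjusted p from 0.0583 to 0.0777).

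Cmpk2, a mitochondrial nucleotide kinase whose gene neighbours Rsad2, did not show this pattern. Its values lay between 6.78 and 6.85 on 8 of 9 arrays and at 6.56 on 4-week replicate 3, and its difference from control at 4 weeks was −0.10 (95% interval −0.29 to 0.09). The deposited Cmpk2 column entries took only 5 distinct values over 9 arrays, and 14 of the 29 genes had at least 1 such repeated value, so small spreads should be read with that in mind. The IFIT genes encode proteins that bind foreign RNA ends. Ifit1, Ifit2 and Ifit3 differed by 0.13, 0.10 and −0.21 after challenge and by 0.37, 0.21 and 0.17 at 4 weeks against control, with adjusted p between 0.160 and 0.755. Without control replicate 3, Ifit1 passed at 4 weeks against control (0.56, adjusted p = 0.0361).

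The MX proteins are antiviral GTPases, and BALB/c is among the laboratory strains known for a defective Mx1. Mx1 read 5.22, 5.05 and 5.07 on the OVA arrays and 5.31, 5.31 and 5.39 on the 4-week arrays, without overlap but also without a call (0.23, adjusted p = 0.221). Mx2 differed by −0.34 after challenge and 0.02 from OVA to 4 weeks (adjusted p = 0.337 and 0.963). Bst2, or tetherin, which holds budding virus at the cell surface, differed by 0.06 or less in size in all 3 comparisons.

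The oligoadenylate synthetases make the messenger that activates RNase L, and all 5 measured members were near flat. Their differences after challenge lay between −0.16 (Oas3) and 0.09 (Oas2), and those from OVA to 4 weeks between −0.32 (Oas2, adjusted p = 0.284) and 0.05 (Oas3). At 4 weeks against control all 5 lay between −0.23 and −0.04 and none passed. Usp18, the protease that removes ISG15 and dampens the type I receptor, had means of 6.95 ± 0.56, 6.96 ± 0.23 and 7.14 ± 0.17 (SD, n = 3). Probe sets of the OAS, GBP and IFIT families can pick up transcripts of close paralogues, which was not tested.

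Guanylate-binding proteins attack the vacuoles and membranes of intracellular microbes and are known targets of interferon gamma. Gbp5 read 4.30, 5.53 and 4.30 on the OVA arrays, against 4.00 to 4.16 on the control arrays and 4.05 to 4.23 on the 4-week arrays. All OVA arrays lay above the control arrays, replicate 2 far above the others. The difference of 0.64 (SE 0.28, adjusted p = 0.308) was 0.23 (adjusted p = 0.296) without that array. Gbp3 differed by 0.23 and Gbp7 by 0.21 after challenge, and by −0.21 and −0.28 from OVA to 4 weeks, with adjusted p between 0.219 and 0.603.

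Among immunity-related GTPases, which act on pathogen vacuoles and on autophagy, Irgm1 read 6.73, 6.17 and 6.14 on the control arrays, 6.82, 6.82 and 6.89 on the OVA arrays, and 6.91, 6.82 and 7.54 on the 4-week arrays. The control arrays lay below all others, and OVA and 4-week arrays overlapped. The 4-week mean was 1.68-fold above control (log2 difference 0.74, SE 0.21, limma adjusted p = 0.0434). This call passed in only 1 of 9 fits that left out an array, that without control replicate 1 (0.94, adjusted p = 0.0239), and was lost without each of the other 8 (adjusted p from 0.0554 to 0.125). Without 4-week replicate 3 the difference was 0.52. The OVA mean was 0.50 above control (adjusted p = 0.281).

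Iigp1 had its highest value on the same array as Irgm1. It read 5.47, 4.98 and 4.90 on the control arrays, 5.28, 5.21 and 5.14 on the OVA arrays, and 5.41, 5.58 and 6.01 on the 4-week arrays. Its 4-week minus control difference of 0.55 (SE 0.18) did not pass (adjusted p = 0.0685), and was 0.73 (adjusted p = 0.0292) without control replicate 1. From OVA to 4 weeks it differed by 0.46 with no overlap (adjusted p = 0.159).

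Ifi27l2a, a small membrane protein strongly induced by type I interferon, was lower in the OVA than in the control arrays. It read 7.86, 7.39 and 7.59 on the control arrays, 6.25, 6.78 and 6.43 on the OVA arrays, and 7.02, 7.00 and 7.49 on the 4-week arrays. The OVA arrays lay below all others, and control and 4-week arrays overlapped. It was 2.19-fold lower after challenge (log2 difference −1.13, SE 0.18, limma adjusted p = 0.0246), a call lost in 5 of the 9 fits that left out an array, namely without any 1 control array or OVA replicate 1 or 3 (adjusted p from 0.0654 to 0.0913). From OVA to 4 weeks it was 1.61-fold higher without passing (0.68, SE 0.18, adjusted p = 0.0596), and at 4 weeks it stood 0.45 below control (adjusted p = 0.127). The called difference is taken against arrays with the other sex pattern, while that from OVA to 4 weeks is not. Xaf1, a pro-apoptotic interferon-induced gene, differed by −0.20, 0.03 and −0.18 in the 3 comparisons and passed in none.

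The control arrays differed among themselves in these genes more than in most. Control replicate 1 was the highest of the 3 control arrays for 22 of the 29 genes (75.9%), while it was the highest for 35.1% of all probe sets. It exceeded both other control arrays by more than 0.3 for 11 genes (37.9%), against 4.12% of all probe sets. Those 11 were Usp18 (0.92 above the next array), Irf7 and Irgm1 (0.57 each), Sting1, Ifit3, Iigp1, Oasl2, Mx2, Zbp1, Gbp3 and Oas1a, the last 8 by 0.33 to 0.49. Ifit1 and Ifit2 went the other way and had their lowest value of all 9 arrays on it.

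Of the 83 other pathway genes measured, control replicate 1 was the highest control array for 51 (61.4%) and exceeded both others by more than 0.3 for 19. Among these were Rtp4 (1.08), Ifitm1 (0.93), Trim30a (0.71), B2m (0.70), Lgals3bp and Ifitm3 (0.62 each). On that array the mean of 10 macrophage markers was 6.94, against 6.73 and 6.32 on the other control arrays. The mean of 6 markers of plasmacytoid dendritic cells, a main source of interferon alpha, was 6.68 against 6.59 and 6.46. That order followed Ly6d, at 8.42, 7.88 and 6.90 on control replicates 1, 2 and 3, and was not shared by the other markers. Siglech read 5.38, 5.38 and 5.35, Tcf4 8.99, 8.97 and 9.03, and Ccr9 4.79, 4.91 and 4.77. Spib read 5.77, 5.52 and 5.73, and Pacsin1 6.70, 6.89 and 6.99. Control replicate 1 also had the highest control mean for ciliated, respiratory and gland, T and NK, and B cell markers. Ciliated cell markers had means of 8.13, 7.75 and 7.49 on control replicates 1, 2 and 3. Respiratory and gland markers had means of 10.30, 10.24 and 9.80. The array was not the highest for neutrophils, eosinophils, mast cells, olfactory neurons, sustentacular cells or endothelium. The part of any of these cell types in the difference was not tested. The effect of control replicate 1 on the comparisons is given above by gene. Without that array, Sting1 and Irf9 kept their calls. Irgm1 kept a call and Iigp1 gained one at 4 weeks against control, and Ifi27l2a and Rsad2 lost theirs.

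OVA replicate 2 carried a different, smaller set. It exceeded both other OVA arrays by more than 0.3 for 6 genes (20.7%), against 2.82% of all probe sets. They were Gbp5 (1.23), Irf1 (0.65), Oas2 (0.47), Ifi27l2a (0.35), Stat2 (0.34) and Gbp3 (0.32). In the wider pathway it did so for 8 genes, with Cxcl10, a chemokine induced by interferon gamma, at 6.66 against 5.40 and 5.50, and Socs3, a feedback inhibitor of cytokine signalling, at 8.67 against 7.61 and 7.86. Ifng itself read 5.08 on that array, against 4.90 and 5.06 on the other OVA arrays. It was the highest OVA array for 9 of 29 genes (31.0%), against 35.2% of all probe sets.

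**Figure D4:**
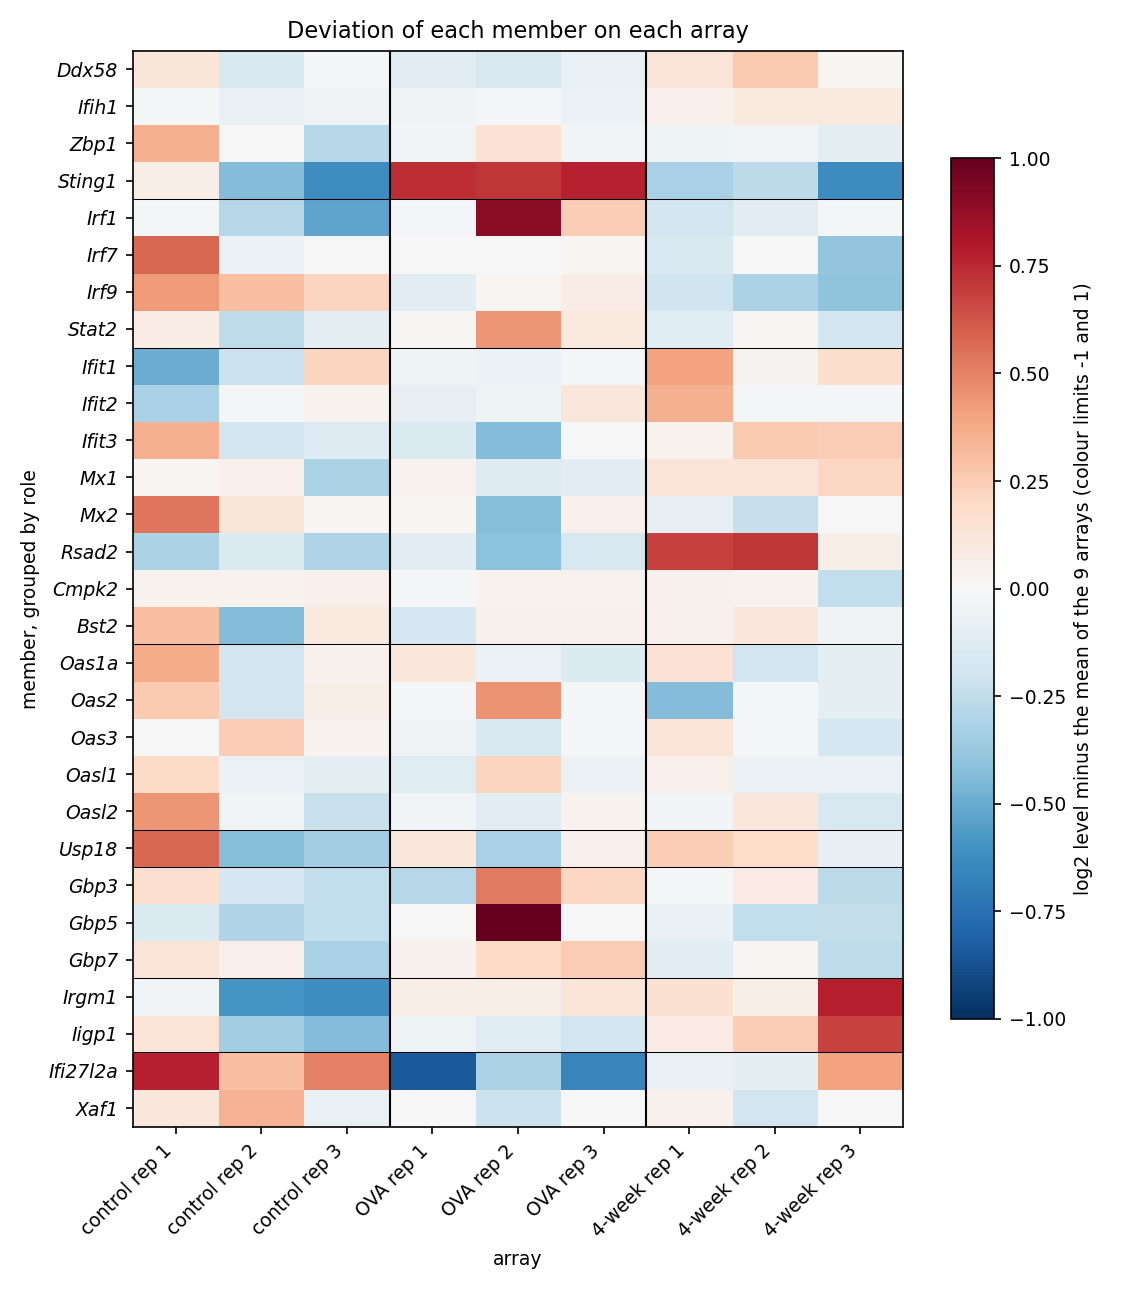
Heat map of the log2 level of each of the 29 genes on each array minus the mean of that gene over the 9 arrays. Rows are genes grouped by role and columns are arrays grouped by treatment, with red for higher and blue for lower values. Control replicate 1 is red in many rows, OVA replicate 2 in Irf1 and Gbp5, and the 3 OVA arrays together are deepest in the Sting1 row.

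The wider pathway was read from a list of 95 ligands, receptors, relay genes, inhibitors and induced genes, of which 83 were measured. In OVA minus control 2 passed (2.41%, against 1.30% of all probe sets), in 4-week minus OVA 5 (6.02%, against 6.33%), and in 4-week minus control 7 (8.43%, against 14.4%). Their median log2 differences were 0.00, −0.04 and −0.02. Of 14 measured interferon genes, limma called none in the first 2 comparisons (2 in each at an unadjusted p under 0.05). Ifna5 was lower at 4 weeks than in control (−0.50, adjusted p = 0.0488), a call kept in 2 of 9 fits without an array.

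Of 6 receptor genes, 1 was called in OVA minus control, 1 in 4-week minus OVA and 2 in 4-week minus control, beside 1.30%, 6.33% and 14.4% of all probe sets. Ifngr2, the signalling chain of the interferon gamma receptor, read 8.70, 8.66 and 8.37 on the control arrays, 9.24, 9.41 and 9.26 on the OVA arrays and 8.92, 8.92 and 8.78 on the 4-week arrays. It thus rose 1.65-fold after challenge (0.73, SE 0.10, limma adjusted p = 0.0160) and fell 1.35-fold to 4 weeks (−0.43, adjusted p = 0.0388), with no overlap between any groups. The rise passed in 8 of 9 fits without an array and the fall in 2. Ifngr1, the ligand-binding chain, was higher at 4 weeks than in control (0.48, SE 0.10, adjusted p = 0.0162), as was Ifnar2 (0.28, adjusted p = 0.0318). Ifnar1 differed by 0.05 or less in size in all comparisons. Ifnlr1, the interferon lambda receptor chain, stood at −0.32 at 4 weeks against control (adjusted p = 0.0595), and Il10rb, its partner chain, at −0.33 from OVA to 4 weeks (adjusted p = 0.0925), neither passing.

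Jak2, a kinase of the gamma receptor, was higher than control both after challenge (0.46, SE 0.08, limma adjusted p = 0.0375) and at 4 weeks (0.43, adjusted p = 0.0119). The 4-week call passed in all 9 fits without an array and the earlier one in 1. Socs3 fell from OVA to 4 weeks (−1.12, SE 0.24, adjusted p = 0.0313), but a second Socs3 probe set had −0.17 (adjusted p = 0.563). Ifitm2, a membrane protein that blocks virus entry, fell as well (−0.62, adjusted p = 0.0355), with −0.62 and −0.81 on its other 2 probe sets, which also passed. Parp12, an interferon-induced ADP-ribosyltransferase, and Sp100, a nuclear body protein, rose from OVA to 4 weeks by 0.44 and 0.79 (adjusted p = 0.0204 and 0.0364). Parp12 also stood 0.34 above control at 4 weeks (adjusted p = 0.0273), while Trex1, a DNase that limits cGAS and STING signalling, was 0.32 below it (−0.32, adjusted p = 0.0351) and Helz2, a helicase, 0.31 below it (−0.31, adjusted p = 0.0311).

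When each array was dropped in turn, the 4-week minus OVA calls of Ifngr2, Socs3, Ifitm2, Parp12 and Sp100 held in 2, 4, 2, 5 and 3 of 9 cases. For 4-week minus control, those of Ifngr1, Ifnar2, Parp12, Trex1 and Helz2 held in 8, 3, 4, 3 and 5. Only Jak2 at 4 weeks against control kept its call in all 9 among these genes. At 4 weeks, some markers of other cell types were also called against control. In that comparison 14.4% of all probe sets were called, and the groups also differ in sex pattern. Of 4 endothelial markers 2 were higher, Cdh5 by 0.46 and Pecam1 by 0.34 (adjusted p = 0.00789 and 0.0306), and the mean of the 4 ranged over 6.48 to 6.69 against 6.22 to 6.30. Of 7 markers of respiratory and gland epithelium 2 were higher, Epcam by 0.60 and Krt18 by 0.48 (adjusted p = 0.00792 and 0.0170), and the mean of the 7 ranged over 9.86 to 10.30 against 9.80 to 10.30. That mean includes Bpifb9a at −2.53 (adjusted p = 0.0863), while 6 of the 7 lay above 0, with a median of 0.30. Of 6 markers of olfactory neurons 1 was lower, Gnal (−0.44, adjusted p = 0.0349), and the mean of the 6 ranged over 10.83 to 11.28 against 11.11 to 11.43. Cdh5, Epcam and Krt18 passed in all 9 fits that left out an array, Pecam1 in 5 and Gnal in 2. Their part in the 4-week differences was not tested.

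**Figure D5:**
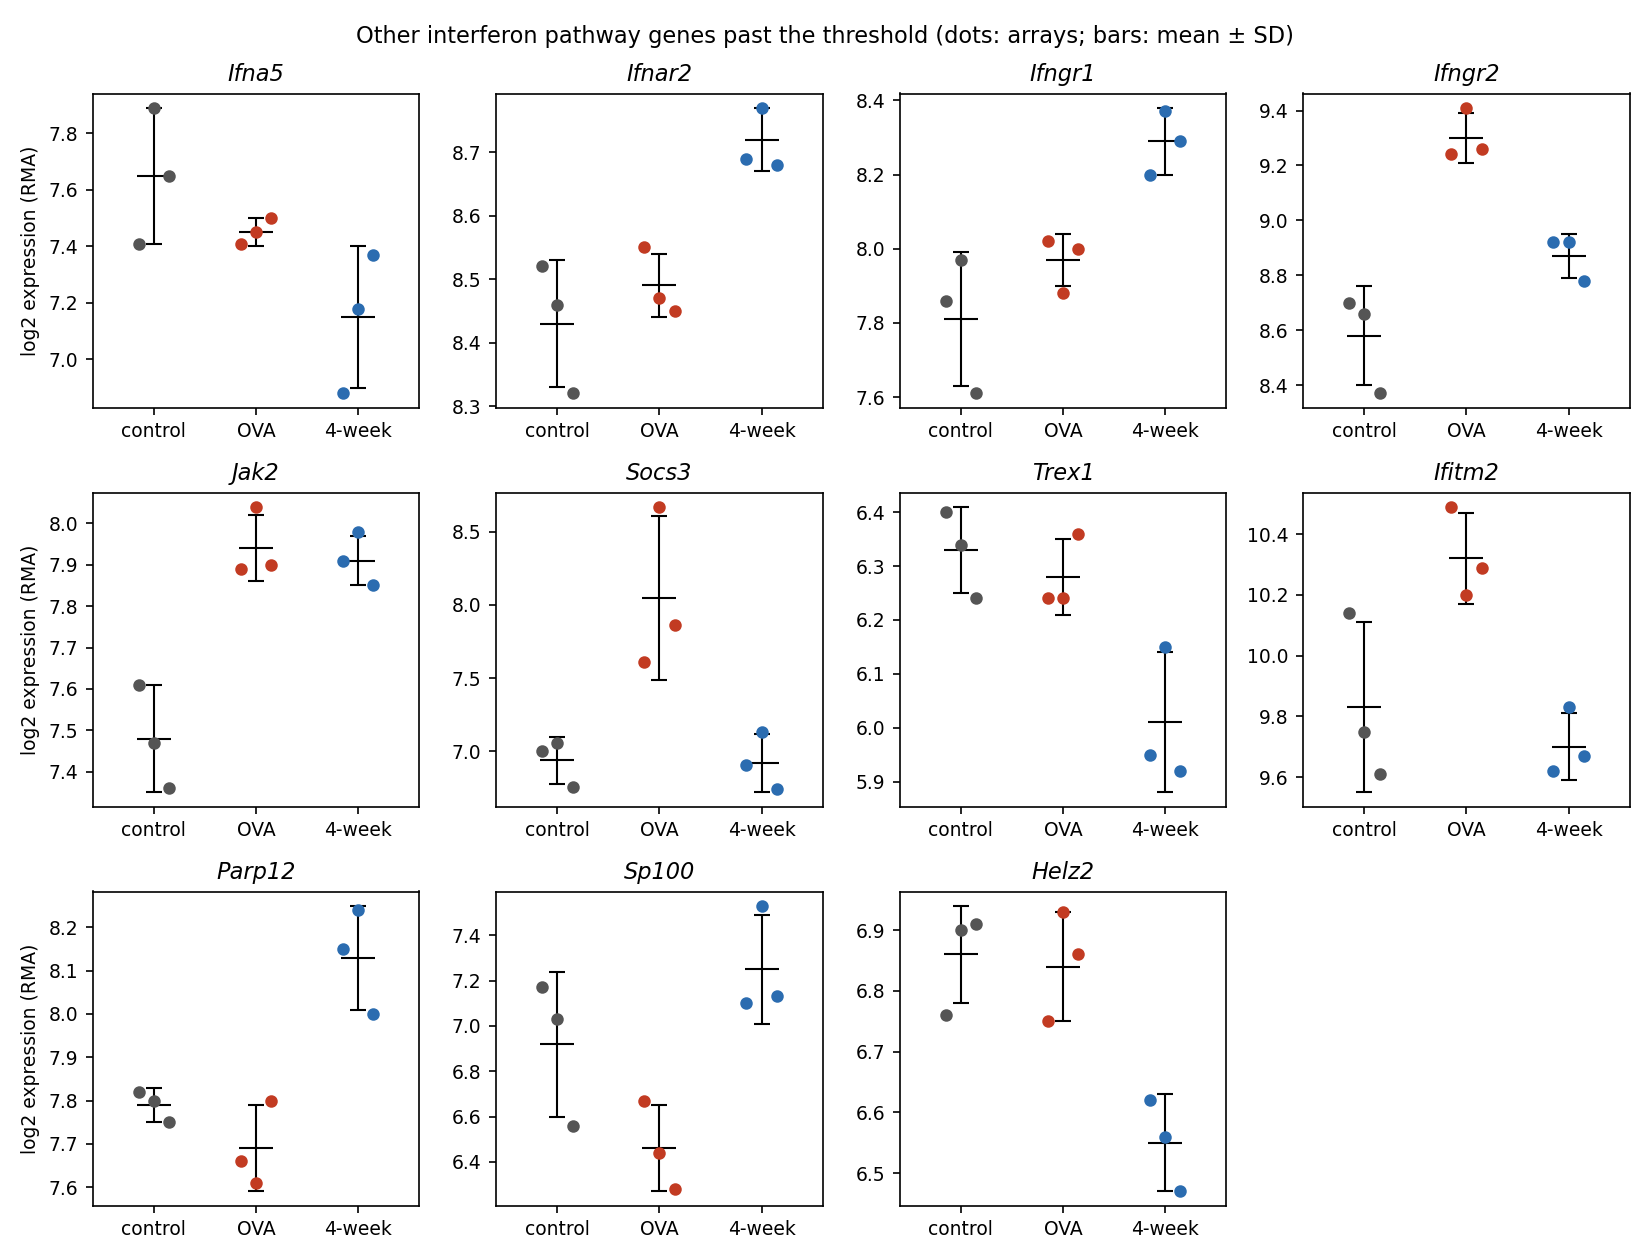
Log2 expression of the 11 other pathway genes called in at least 1 comparison, with a dot for each array and bars for the mean and SD of the 3 arrays of a group. The y axes differ between panels. Ifngr2 is highest in the OVA arrays and intermediate at 4 weeks, and Jak2 is above control in both ovalbumin groups.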

How the data were processed

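Total RNA of nasal mucosa was hybridised, 1 array to a sample. The authors deposited 1 log2 level for each probe set and array, and the submitters' processing notes name RMA. Its software is not given in the sources used here. The log2 scale was read from the range of the values (1.63 to 13.83). Median-polish summaries can repeat a value across arrays. No detection calls were used.

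Symbols came from the platform's annotation table, which was updated to RefSeq symbols (GRCm38.p6) by Entrez number. A gene is represented by its single-gene probe set with the highest mean. All 9 arrays entered 1 limma 3.58.1 fit (R 4.3.3, lmFit and eBayes, 1 mean per group), two-sided, with Benjamini-Hochberg adjustment over 23410 probe sets with a symbol and a threshold of 0.05. The fit was tested on simulated data. Named were all measured members, those called with every array's value, and up to 8 called pathway genes per comparison. The members and lists were chosen with earlier results of these data known. Alternatives were 3 choices of rows or probe sets, 2 scalings, a dim filter, compared groups only, a trended robust prior, a replicate block and leaving out each array.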

Additional observations from a re-analysis of the deposited data

How the results depend on the processing

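The counts of called genes were small and moved with the processing, and no called difference changed sign in any alternative run. In OVA minus control, 2 genes were called, against 0 when every row of the table was tested (Ifi27l2a adjusted p = 0.0558, with 5 genes at an unadjusted p under 0.05 in the limma fit reported), 0 with the compared groups only and 1 with the replicate block, and 0 to 2 when an array was left out. At 4-week minus OVA, the 2 calls became 1 with every row, with the compared groups only or with the replicate block, and 1 to 2 without an array, Sting1 being the call kept each time. At 4-week minus control, the 3 calls became 1 with the compared groups only (Irf9) and 1 to 3 without an array. Testing every row adds probe sets to the adjustment, and the compared groups only leave fewer samples for the spread. Quantile normalization called Iigp1 (0.66, adjusted p = 0.0440) in place of Irgm1 at 4 weeks against control, and the dim filter, which keeps 19 of the 29 genes, added Irf9 and Ifi27l2a in 4-week minus OVA and left out Rsad2. Same-numbered arrays of different groups correlated in their deviations at −0.0438 to 0.332, and differently numbered ones at −0.358 to 0.265. These ranges overlap, with the highest value in a same-numbered pair, so they do not settle whether replicate numbers pair the arrays. The replicate block took the calls of Ifi27l2a, Rsad2 (against OVA) and Irgm1. Over all genes and comparisons, 78 of 87 results kept their side of the threshold throughout. No detection calls were used, so the distance of a probe set from background was not assessed.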
